A study of Homo sapiens with 12 samples.

Results

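The EGR and IER immediate early genes were measured together with SRF, the serum response factor, on arrays of the Ewing sarcoma cell lines TC32 and TC71. The genes were EGR1, EGR3, EGR4, IER2, IER3, IER5 and SRF, and every probe set that the platform annotation assigns to 1 of these symbols alone was taken, which gave 12 of the 54613 non-control probe sets and 7 of 19775 genes. IER2, IER3, IER5 and EGR3 had 1 probe set each, EGR1 and EGR4 had 3 each, and SRF had 2. The genes were selected on measured values, namely those of mithramycin against control in both lines. For these genes those values are therefore a description without p-values, in which calls are only counted beside those of all probe sets. For them only the comparison of the control samples of the lines is given with p-values, which are not an independent test, as stated there. With mithramycin IER2, IER3 and IER5 were higher in both lines, by 1.57-fold to 1.59-fold for IER2, 1.27-fold to 2.24-fold for IER3 and 1.45-fold to 2.15-fold for IER5. The brightest EGR1 probe set was lower with mithramycin in TC32 and higher in TC71, from a level that was 4.21-fold lower in TC71 control cells than in TC32 control cells. Its calls were lost under some alternatives in each line, and in TC71 the groups overlapped in the dimmer EGR1 sets.

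The samples formed 4 groups, TC32 with mithramycin, TC32 control, TC71 with mithramycin and TC71 control, and each held 3 samples that the labels call biological replicates, with 1 array each. Treated cells received mithramycin at 100 nM and control cells the solvent, and RNA was taken after 6 h. TC32 and TC71 are established lines from Ewing sarcoma, a tumour of bone and soft tissue driven by a fusion of EWSR1 with an ETS gene, and mithramycin is an antibiotic that binds GC-rich DNA. Each line is 1 model of the tumour, and what is shared by a line's dishes cannot be told apart from the line.

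Immediate early genes are transcribed within minutes of a growth factor, stress or calcium signal without new protein synthesis. Many are switched on when RAS to ERK signalling phosphorylates ETS-type cofactors such as ELK1 that sit beside SRF on CArG boxes, while actin dynamics act on SRF through the MRTF coactivators. EGR1, EGR3 and EGR4 encode zinc finger factors that bind GC-rich sites, and EGR1 and EGR3 are held back by the NAB corepressors. The IER genes encode small, short-lived proteins, of which IER2 and IER5 share an N-terminal domain.

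The sequences before the starts of EGR1, SRF and IER2 are shown because the first 2 carry the CArG boxes through which SRF acts and IER2 carries GC boxes. They are the 250 bases upstream of the annotated start from RefSeq, build GRCh38.p14, 5′ to 3′ on the gene's strand, and capitals mark matches to the CArG box, the GC box GGGCGG or the EGR motif GCGNGGGCG on either strand. EGR1 lies at chr5:138465229-138465478, SRF at chr6:43171019-43171268 and IER2 at chr19:13150161-13150410, each on the plus strand.
EGR1: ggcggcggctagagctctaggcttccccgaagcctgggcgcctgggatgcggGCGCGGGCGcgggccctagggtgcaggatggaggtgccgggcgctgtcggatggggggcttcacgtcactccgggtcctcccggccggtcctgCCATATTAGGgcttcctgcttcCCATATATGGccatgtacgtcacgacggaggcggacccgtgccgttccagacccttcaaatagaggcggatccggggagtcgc
SRF: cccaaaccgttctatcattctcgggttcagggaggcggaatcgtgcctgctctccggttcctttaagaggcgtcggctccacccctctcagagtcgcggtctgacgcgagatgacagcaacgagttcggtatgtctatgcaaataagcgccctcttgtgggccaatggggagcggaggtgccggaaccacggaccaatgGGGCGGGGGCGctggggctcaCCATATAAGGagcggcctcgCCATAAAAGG
IER2: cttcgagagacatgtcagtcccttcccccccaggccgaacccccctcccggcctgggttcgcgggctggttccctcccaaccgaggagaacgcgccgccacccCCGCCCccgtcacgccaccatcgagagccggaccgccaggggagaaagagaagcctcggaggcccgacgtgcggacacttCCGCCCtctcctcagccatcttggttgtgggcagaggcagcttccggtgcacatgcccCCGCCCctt

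EGR1 held 2 CArG boxes, at -105 to -96 and -83 to -74 from the start, and 1 EGR motif at -198 to -190. SRF also held 2 CArG boxes, at -30 to -21 and -10 to -1, and an EGR motif at -49 to -41 that overlapped its GC box at -51 to -46. Of the 27303 promoters of that length, 1.1% held a CArG box and 0.03% held 2 or more, so the pair of boxes was rare among promoters. The EGR motif was found in 8.2% of them and the GC box in 42.3%, and 24.36% held 2 or more GC boxes. IER2 held 3 GC boxes, all on the opposite strand, whereas EGR4 and IER5 had no match to these motifs in their 250 bases. The GC content was 68.4% for EGR1, 69.6% for EGR4, 69.6% for IER2, 70.4% for IER5 and 60.4% for SRF, against a median of 58.0% and quartiles of 46.0% and 67.6% over all promoters. Of the 7 genes, 5 were matched to the table of promoters, and a match is a description of letters, not evidence that a factor binds.

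**Figure D1:**
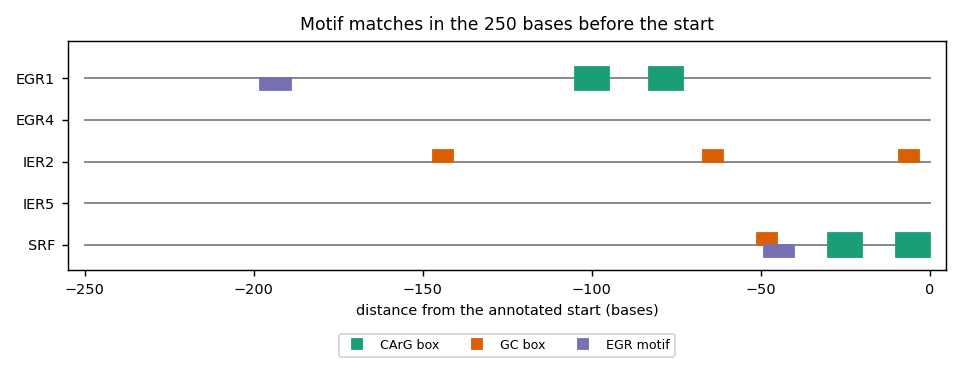
Motif matches in the 250 bases before the annotated start of EGR1, EGR4, IER2, IER5 and SRF. The x axis is the distance from the start in bases, and boxes mark CArG boxes, GC boxes and EGR motifs on either strand. EGR1 and SRF each hold 2 CArG boxes, IER2 holds 3 GC boxes, and EGR4 and IER5 hold none of these motifs.

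Values below are log2 RMA values, and a probe set was called when the adjusted p of the limma model fell under 0.05. With mithramycin in TC32, 3 of the 12 probe sets were called higher and 2 lower, beside 19.4% and 16.9% of all probe sets, and their median difference was 0.03 against 0.06 over all probe sets. In TC71, 5 were called higher and 1 lower, beside 14.5% and 13.7% of all probe sets, with a median difference of 0.24 against 0.05. Since the genes were chosen with these values known, nothing is read from the counts. The same holds where groups do not overlap, as the share of such probe sets over all probe sets was not counted. Whether a lower value means less RNA per cell or fewer cells that make it cannot be told apart in RNA from whole dishes.

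EGR1 encodes the factor of the family best known from the growth factor response, and its brightest probe set had opposite directions in the lines. Probe set 201694_s_at, the only one of EGR1 above the array median on every array, had 6.33, 6.35 and 6.34 in TC32 with mithramycin, against 6.94, 6.53 and 6.97 in TC32 control. In TC71 it had 5.18, 5.08 and 5.35 with mithramycin, against 4.72, 4.44 and 5.05 in control. All treated arrays lay below all controls in TC32 and above all controls in TC71, although TC32 control replicate 2 and TC71 control replicate 3 came close to the treated arrays. The difference was -0.47 ± 0.14 (SE) in TC32 and 0.46 ± 0.14 in TC71, and the TC71 difference exceeded that of TC32 by 0.94 ± 0.20. With quantile normalization run again the difference was -0.32 in TC32, and it lay between 0.32 with TC71 control replicate 2 left out and 0.62 over the alternatives in TC71. The 3′ to 5′ difference of beta-actin, a sign of RNA quality given at the end, gave 0.57 in TC71 when used as a covariate. The sign held under every alternative run in each line. The set was counted as called in both lines, but this call was less stable. In TC32 it was lost with quantile normalization run again and without TC32 mithramycin replicate 1, TC32 control replicate 1 or TC32 control replicate 3. In TC71 it was lost with housekeeping centring and with the beta-actin covariate. It was also lost there without mithramycin replicate 1 or 3, or without control replicate 1 or 2.

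The other EGR1 probe sets lay near the array medians of 4.38 to 4.47, so their sizes are rough. In TC71 control 201694_s_at also came close to these medians, at 4.72, 4.44 and 5.05. Its TC71 difference and its gap between the control samples of the lines are therefore rough as well. Probe set 227404_s_at had 4.17, 4.20 and 4.38 in TC32 with mithramycin, against 4.87, 4.84 and 4.91 in TC32 control, a difference of -0.62 ± 0.11. In TC71 it had 3.66, 3.46 and 3.62 with mithramycin, against 3.68, 3.60 and 3.22 in control, and the groups overlapped (0.08 ± 0.11). Probe set 201693_s_at followed the same order in TC32, with 4.46, 4.50 and 4.46 under mithramycin, against 4.74, 4.75 and 4.75 in control. The 3 probe sets of EGR1 were lower with mithramycin in TC32 by 0.28 to 0.62 on the log2 scale, which is a description. Of these, 201693_s_at was not called. In TC71, 201693_s_at had 3.67, 3.75 and 3.94 with mithramycin, against 4.04, 3.38 and 3.69 in control, which overlapped (0.08 ± 0.13). The higher value in TC71 was therefore seen in 201694_s_at only. Over the alternatives the TC71 difference ran from -0.08 to 0.47 in 201693_s_at and from -0.06 to 0.21 in 227404_s_at. The value of 0.47 came with the beta-actin covariate, and in neither dimmer set did the sign hold.

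EGR3, known in mice for its part in muscle spindle development, lay below the array median on all 12 arrays and its groups overlapped in both lines. It had 3.69, 3.52 and 3.50 in TC32 with mithramycin, against 3.63, 3.23 and 3.39 in TC32 control, and 3.95, 3.34 and 3.66 in TC71 with mithramycin, against 3.44, 3.23 and 3.58 in TC71 control. The differences were 0.15 ± 0.15 in TC32 and 0.23 ± 0.15 in TC71.

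EGR4, known in mice for its part in male germ cell development, had 3 dim probe sets that moved in different ways. Probe set 207768_at had 2.70, 2.48 and 2.60 in TC32 with mithramycin, against 2.37, 2.59 and 2.88 in TC32 control, so the groups overlapped (-0.02 ± 0.11). In TC71 it had 3.57, 3.40 and 3.53 with mithramycin, against 4.25, 4.02 and 4.14 in control, without overlap (-0.63 ± 0.11). It lay below the array median on all 12 arrays, so this size is a description of signal near background. Probe set 231575_at ran the other way in TC71, with 4.24, 4.57 and 4.18 under mithramycin, against 4.17, 3.96 and 4.14 in control (0.24 ± 0.11), and 207767_s_at had -0.15 ± 0.10 there. In TC32 those 2 sets differed by 0.06 ± 0.11 and 0.16 ± 0.10, with all EGR4 differences in TC32 at most 0.16 in size. The EGR4 probe sets therefore gave no common direction.

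SRF was measured well by 1 of its 2 probe sets. Probe set 202401_s_at had 7.65, 7.67 and 7.55 in TC32 with mithramycin, against 7.67, 7.72 and 7.64 in TC32 control, and 7.03, 7.07 and 7.07 in TC71 with mithramycin, against 6.75, 6.73 and 6.81 in TC71 control. The TC32 groups overlapped (-0.05 ± 0.06), and the TC71 groups did not (0.29 ± 0.06, 1.23-fold). The sign in TC32 turned to 0.04 with quantile normalization run again. The TC71 difference shrank to 0.18 with arrays centred on housekeeping genes, where it was no longer called. Probe set 202400_s_at, below the array median on 8 arrays, had 4.50, 4.45 and 4.10 in TC32 with mithramycin, against 4.13, 4.54 and 4.41 in TC32 control, and 4.32, 3.93 and 4.22 in TC71 with mithramycin, against 3.97, 3.90 and 4.18 in TC71 control. Its groups overlapped in both lines (-0.01 ± 0.14 and 0.14 ± 0.14).

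The 3 IER genes stood above the array median on every array and were higher with mithramycin on every treated array than on any control array of the same line. This lack of overlap is a description, as its share over all probe sets was not counted. IER2, a nuclear protein induced by growth factors, had 9.45, 9.36 and 9.41 in TC32 with mithramycin, against 8.77, 8.72 and 8.73 in TC32 control. In TC71 it had 9.19, 9.13 and 9.08 with mithramycin, against 8.47, 8.45 and 8.51 in control. The difference was nearly equal in the lines, at 0.67 ± 0.06 in TC32 and 0.65 ± 0.06 in TC71, with the TC71 difference minus the TC32 difference at -0.02 ± 0.08.

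IER3, which encodes a regulator of apoptosis and ERK signalling, had 8.93, 8.78 and 8.82 in TC32 with mithramycin, against 8.54, 8.48 and 8.48 in TC32 control. In TC71 it had 8.17, 8.12 and 8.14 with mithramycin, against 6.98, 6.99 and 6.97 in control. Its difference was 1.16 ± 0.06 in TC71 and 0.34 ± 0.06 in TC32, a gap of 0.82 ± 0.08. The TC32 difference shrank to 0.24 with arrays centred on housekeeping genes. It shrank to 0.19 with arrays centred on hybridization controls, where it was no longer called. IER5, which encodes an adaptor of the phosphatase PP2A that acts on the heat shock factor HSF1, had 10.00, 10.24 and 10.10 in TC32 with mithramycin, against 9.56, 9.60 and 9.57 in TC32 control. In TC71 it had 9.16, 9.12 and 9.14 with mithramycin, against 8.06, 8.04 and 8.0 in control. IER5 thus resembled IER3, with 1.11 ± 0.07 in TC71 and 0.54 ± 0.07 in TC32, a gap of 0.57 ± 0.10. The gaps between the lines were not tested, since the genes were chosen on these values. The treated TC71 cells of both genes remained below the TC32 controls.

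**Figure D2:**
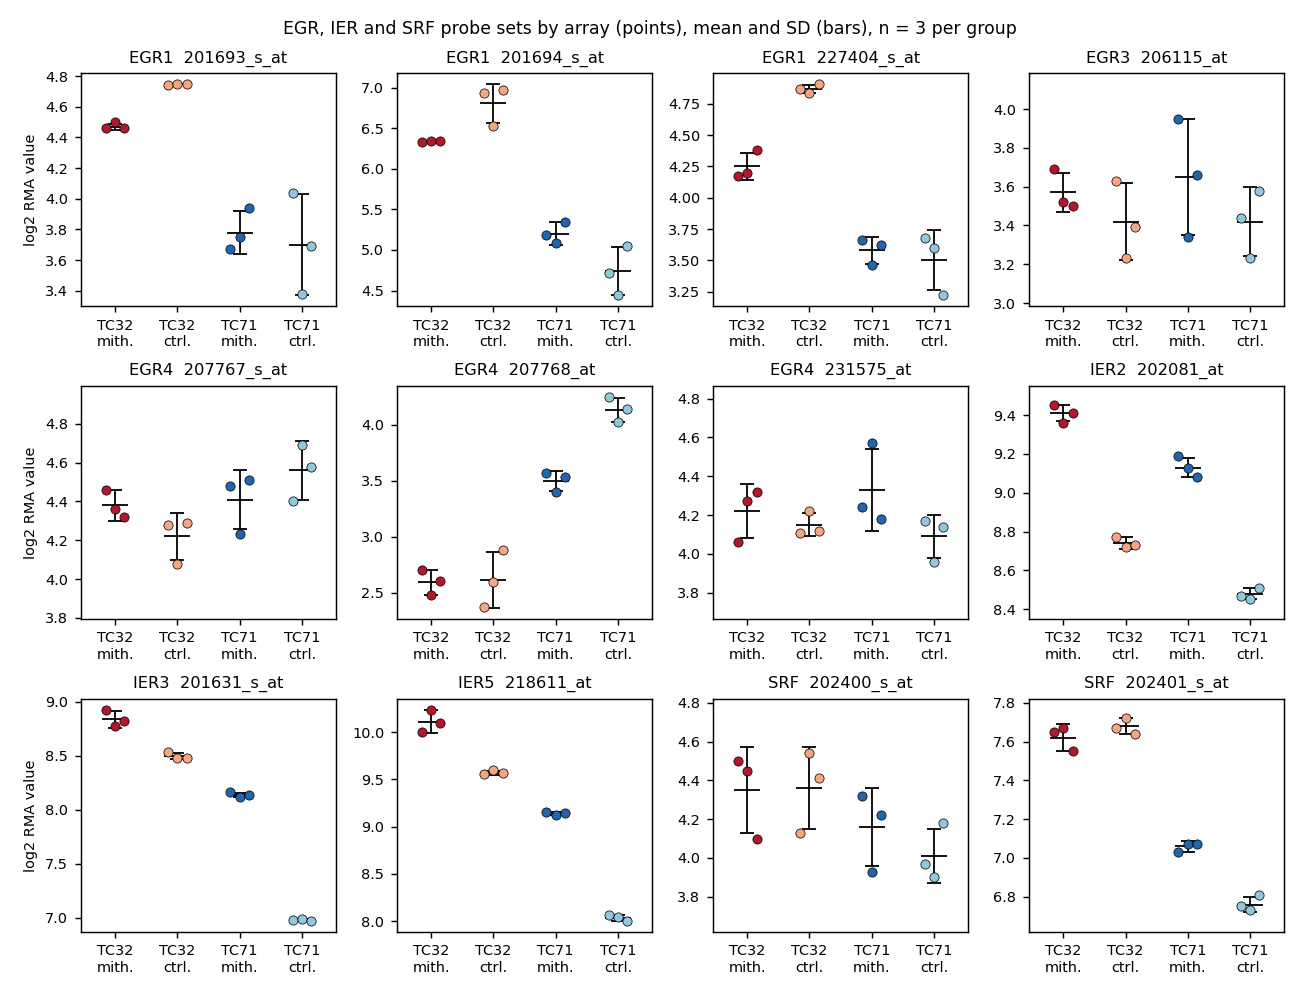
Log2 RMA values of the 12 EGR, IER and SRF probe sets, with 1 panel per probe set and its own y axis. Points are arrays, bars the mean and SD of 3 arrays, and groups run from TC32 with mithramycin and TC32 control to TC71 with mithramycin and TC71 control. IER2, IER3 and IER5 are higher with mithramycin in both lines, and EGR1 201694_s_at is lower with mithramycin in TC32 and higher in TC71.

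**Figure D3:**
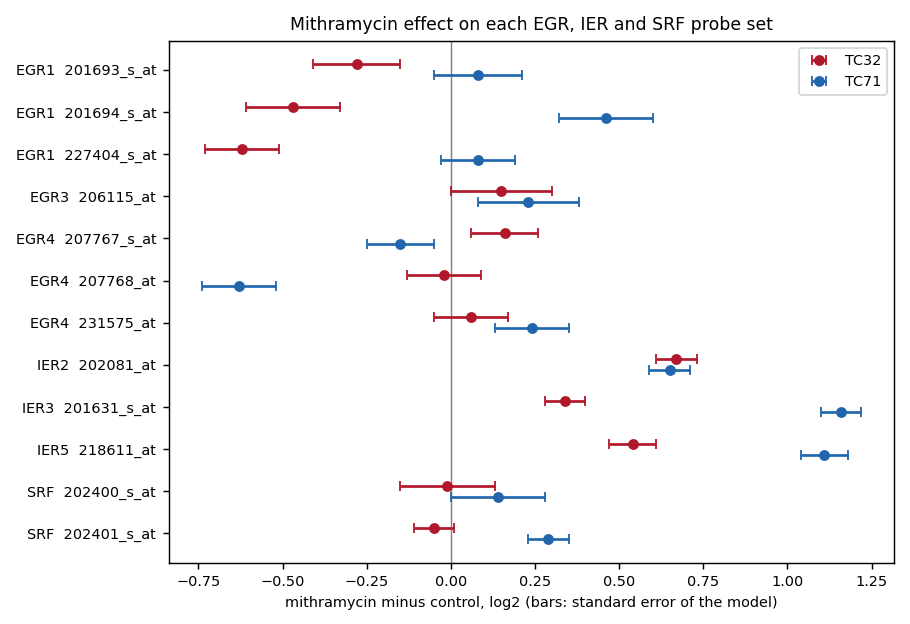
Mithramycin minus control on the log2 scale for each of the 12 probe sets, with red for TC32, blue for TC71 and bars for the standard error of the model. The IER genes lie right of 0 in both lines, between 0.34 and 1.16, while the EGR1 sets lie between -0.62 and -0.28 in TC32 and between 0.08 and 0.46 in TC71.

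The control samples of the lines differed in most of these genes. This comparison was not named among those that chose the genes, but it uses the same control arrays. The genes were also chosen with earlier results of these data known. Its p-values are therefore a description of the gap against the spread, not an independent test. In TC71 control against TC32 control, 2 of the 12 probe sets were called higher and 7 lower, beside 20.7% and 21.9% of all probe sets, and their median difference was -0.63 against -0.04 over all probe sets. All 3 EGR1 probe sets were lower in TC71. The brightest, 201694_s_at, averaged 4.74 ± 0.30 in TC71 control and 6.81 ± 0.24 in TC32 control (SD, n = 3 each), a difference of -2.07 ± 0.14 (limma adjusted p = 5.11e-08), and the dimmer sets differed by -1.37 ± 0.11 (limma adjusted p = 1.77e-07) and -1.04 ± 0.13 (limma adjusted p = 1.42e-05).

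IER5 and IER3 were lower in TC71 by nearly the same amount. IER5 averaged 8.03 ± 0.03 in TC71 control and 9.57 ± 0.02 in TC32 control, a 2.91-fold lower level (limma adjusted p = 5.02e-10). IER3 averaged 6.98 ± 0.01 in TC71 control and 8.50 ± 0.03 in TC32 control, a 2.88-fold lower level (limma adjusted p = 1.79e-10). SRF 202401_s_at was 1.88-fold lower in TC71, with 6.76 ± 0.04 in TC71 control and 7.68 ± 0.04 in TC32 control (limma adjusted p = 3.37e-08), whereas 202400_s_at missed the threshold at -0.35 ± 0.14 (limma adjusted p = 0.0584). The IER2 difference was small, at -0.26 ± 0.06 (limma adjusted p = 0.0025), and was lost with arrays centred on housekeeping genes (-0.08, limma adjusted p = 0.317), on hybridization controls (-0.20, limma adjusted p = 0.142) or with the beta-actin covariate (-0.24, limma adjusted p = 0.0879). The sets called higher in TC71 were both of EGR4: 207768_at was higher by 1.52 ± 0.11 (limma adjusted p = 1.1e-07) and 207767_s_at by 0.34 ± 0.10 (limma adjusted p = 0.0119), the second no longer called without TC32 control replicate 2 (0.27, limma adjusted p = 0.0559) or TC71 control replicate 2 (0.28, limma adjusted p = 0.0601). For EGR4 231575_at and EGR3 the difference missed the threshold (limma adjusted p = 0.687 and 0.996).

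**Figure D4:**
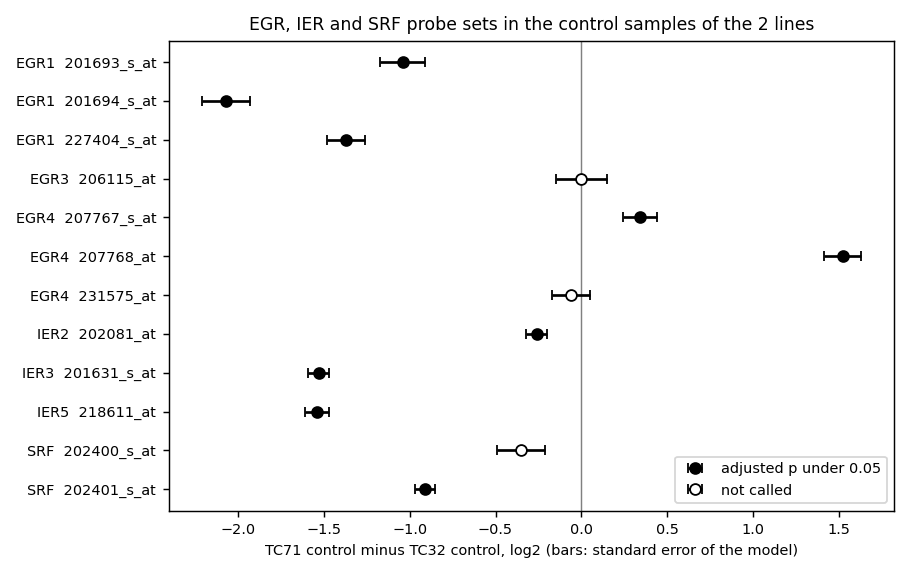
TC71 control minus TC32 control on the log2 scale for each of the 12 probe sets, with bars for the standard error of the model and filled points for an adjusted p under 0.05. EGR1, IER3, IER5 and SRF 202401_s_at lie between -2.07 and -0.91, and EGR4 207768_at lies at 1.52.

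Read over the 4 groups, the order of levels differed between the genes. EGR1 201694_s_at ran from TC32 control at the top through TC32 with mithramycin and TC71 with mithramycin to TC71 control, and no neighbours overlapped, so treated cells of the lines lay closer together than control cells. IER3 and IER5 ran from TC32 with mithramycin through TC32 control and TC71 with mithramycin to TC71 control, again without overlap. For IER2 both treated groups stood above both controls, and no neighbours overlapped. SRF 202401_s_at had the order of EGR1, with the TC32 pair overlapping.

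The genes with the most similar pattern over the 12 arrays were looked up among 8382 genes whose mean reached 6. The arrays fall into 4 groups, so these correlations follow mainly the 4 group means and are given as a description. IER2 was closest to DCAF8 (Pearson r = 0.994), MTX3 (0.992) and ARL6IP4 (0.989). IER3 was closest to HOXB7 (0.982), TSPAN17 (0.980) and SKIDA1 (0.978), and IER5 to HOXB7 (0.993), CTH (0.991) and SKIDA1 (0.991), so HOXB7 and SKIDA1 stood beside both. SRF was closest to TGIF1 (0.995), SRXN1 (0.993) and GADD45A (0.992). EGR1, EGR3 and EGR4 lay under a mean of 6 and were not searched.

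Genes around EGR and SRF were read from 7 lists holding 78 genes, of which 68 had a probe set of a single symbol here, and each gene was represented by its brightest probe set. In TC32, 13 were called higher and 18 lower with mithramycin, beside 23.1% and 18.5% of all genes, and in TC71, 20 were called higher and 12 lower, beside 17.0% and 15.3%. The TC32 median of these genes was 0.06 against 0.08 over all genes, and the TC71 median 0.10 against 0.07. The difference between the lines was called for 9 genes, 8 of them higher in TC71, beside 8.01% of all genes. The lists name none of the EGR, IER and SRF genes described above, and their p-values were adjusted over all probe sets.

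Of the 3 EGR relatives and corepressors measured, 1 rose and 1 fell in TC32, and 1 fell in TC71. NAB2, a corepressor that EGR factors themselves induce, averaged 6.64 ± 0.07 with mithramycin and 7.0 ± 0.11 in control in TC32, and 6.96 ± 0.07 with mithramycin and 7.34 ± 0.04 in control in TC71. The falls were 0.36 in TC32 and 0.37 in TC71 (limma adjusted p = 0.00174 and 0.0017), the TC71 call being lost with the beta-actin covariate (limma adjusted p = 0.0519). Its relative NAB1 rose in TC32 (0.45 ± 0.07, limma adjusted p = 0.000394) and had 0.17 ± 0.07 in TC71 (limma adjusted p = 0.104). The difference between the lines was not called for NAB1 (limma adjusted p = 0.171). WT1, a zinc finger factor that binds EGR-type sites, missed the threshold in both lines, at 0.45 ± 0.20 in TC32 and -0.38 ± 0.20 in TC71 (limma adjusted p = 0.0886 and 0.178).

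Of the 6 SRF cofactors, 1 rose and 3 fell in TC32, and 1 rose and 2 fell in TC71. The 2 ubiquitous MRTF coactivators, which carry actin signals to SRF, fell in both lines. MRTFA averaged 5.05 ± 0.14 with mithramycin and 5.90 ± 0.12 in control in TC32, and 5.0 ± 0.05 with mithramycin and 5.96 ± 0.13 in control in TC71, falls of 0.85 and 0.96 (limma adjusted p = 9.54e-06 and 4.78e-06). MRTFB averaged 6.81 ± 0.09 with mithramycin and 7.49 ± 0.06 in control in TC32, and 7.02 ± 0.03 with mithramycin and 7.85 ± 0.03 in control in TC71 (limma adjusted p = 3.39e-06 and 8.44e-07). For both genes these were the largest falls among their 5 probe sets, which reached 0.12 and -0.08 for MRTFA in TC32 and TC71 and 0.24 and 0.16 for MRTFB. With the mean of all probe sets, MRTFA had -0.16 in TC32 and -0.34 in TC71 (limma adjusted p = 0.0427 and 0.000713), and MRTFB had -0.15 and -0.13 (limma adjusted p = 0.0466 and 0.0767). ELK3, an ETS cofactor that represses until phosphorylated, fell in TC32 (-0.40 ± 0.10, limma adjusted p = 0.00743) and had -0.21 ± 0.10 in TC71 (limma adjusted p = 0.146). ELK4 rose by its brightest probe set in TC32 (0.23 ± 0.08, limma adjusted p = 0.0337) and TC71 (0.40 ± 0.08, limma adjusted p = 0.0014), but 1 of its 7 probe sets was called lower in each line, with the lowest at -1.31 in TC32 and -0.57 in TC71. The ELK4 call was lost under 9 of 23 alternatives in TC32, among them centring on housekeeping genes (0.12), hybridization controls (0.07) and the mean of its sets (-0.12), and under 3 in TC71. ELK1 had 0.14 in TC32 and 0.03 in TC71 (limma adjusted p = 0.228 and 0.835), and MYOCD, the muscle coactivator, lay below the array median on all arrays.

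The cytoskeletal targets of SRF and MRTF moved little. Of the 11 measured, 1 was called lower in TC32 and 2 higher in TC71, with medians of 0.00 and 0.11 against 0.08 and 0.07 over all genes. Named after their values were seen, these were VCL, which encodes vinculin, in TC32 (-0.25, limma adjusted p = 0.00383), and TPM1, which encodes tropomyosin (0.43, limma adjusted p = 0.00293), and CNN1, which encodes calponin (0.23, limma adjusted p = 0.0359), in TC71. CNN1 lay below the array median on all arrays and lost its call under 10 of 22 alternatives (0.13 to 0.32 over all 22), 5 of the 10 with a single array left out. Of a list of 4 fibroblast markers (DCN, LUM, THY1 and COL1A1), only THY1 and COL1A1 lay above the array median on all arrays. The mean level of this list in TC71 was 6.73 to 6.93 with mithramycin and 6.30 to 6.42 in control. In TC32 it was 5.16 to 5.29 with mithramycin and 5.15 to 5.22 in control. The part of this list in the values above was not tested.

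Of the 25 other immediate early genes measured, 8 rose and 6 fell in TC32, and 14 rose and 3 fell in TC71, with medians of 0.07 and 0.25. Of these, 6 rose in both lines and 1 fell in both. GADD45B, a stress-induced regulator of MAP kinase signalling, averaged 7.98 ± 0.20 with mithramycin and 6.90 ± 0.06 in control in TC32, and 7.04 ± 0.08 with mithramycin and 5.63 ± 0.07 in control in TC71 (limma adjusted p = 1.29e-06 and 1.7e-07), and its weakest probe set had 0.36 and 0.34. ATF3, a stress-induced bZIP factor, rose by 1.09 ± 0.10 and 1.43 ± 0.10, although its weakest probe set had 0.27 and 0.11. NR4A2, an orphan nuclear receptor, rose by 0.97 ± 0.10 and 1.10 ± 0.10 (limma adjusted p = 4.86e-06 and 2.32e-06), and all 3 of its probe sets reached at least 0.79 in TC32 and 1.09 in TC71. The gene that fell in both lines, named after its values were seen, was the transcription factor gene MYC (-0.84 in TC32 and -0.62 in TC71, limma adjusted p = 3.53e-07 and 8.17e-06), and the others that fell in TC71 were KLF6 (-0.23, limma adjusted p = 0.0154) and TNFAIP3 (-0.59, limma adjusted p = 0.000963). The KLF6 call was lost when sets ending in _x_at and _s_at were left out (0.04), with arrays centred on hybridization controls (-0.14), with the mean of its probe sets and with the beta-actin covariate.

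The difference between the lines was called for 7 of these genes, all higher in TC71, and 3 genes were called in opposite directions in the lines. They were named after their values were seen. CCN2, a matrix protein gene induced through SRF and YAP, averaged 10.26 ± 0.06 with mithramycin and 11.04 ± 0.03 in control in TC32, and 6.53 ± 0.13 with mithramycin and 4.81 ± 0.10 in control in TC71, and the TC71 effect exceeded the TC32 effect by 2.51 (limma adjusted p = 3.87e-07). SGK1, a serum-induced kinase, fell in TC32 (-0.57) and rose in TC71 (0.51, difference 1.08, limma adjusted p = 1.7e-05). KLF4 had -0.57 in TC32 and 0.59 in TC71 (both called, difference 1.16, limma adjusted p = 0.00113), the TC71 call being lost with the beta-actin covariate (0.42, limma adjusted p = 0.111) and its other probe set having 0.03 and 0.12. KLF4 averaged 3.9 ± 0.11 with mithramycin and 3.31 ± 0.21 in control in TC71, below the array medians, so its size there is rough.

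**Figure D5:**
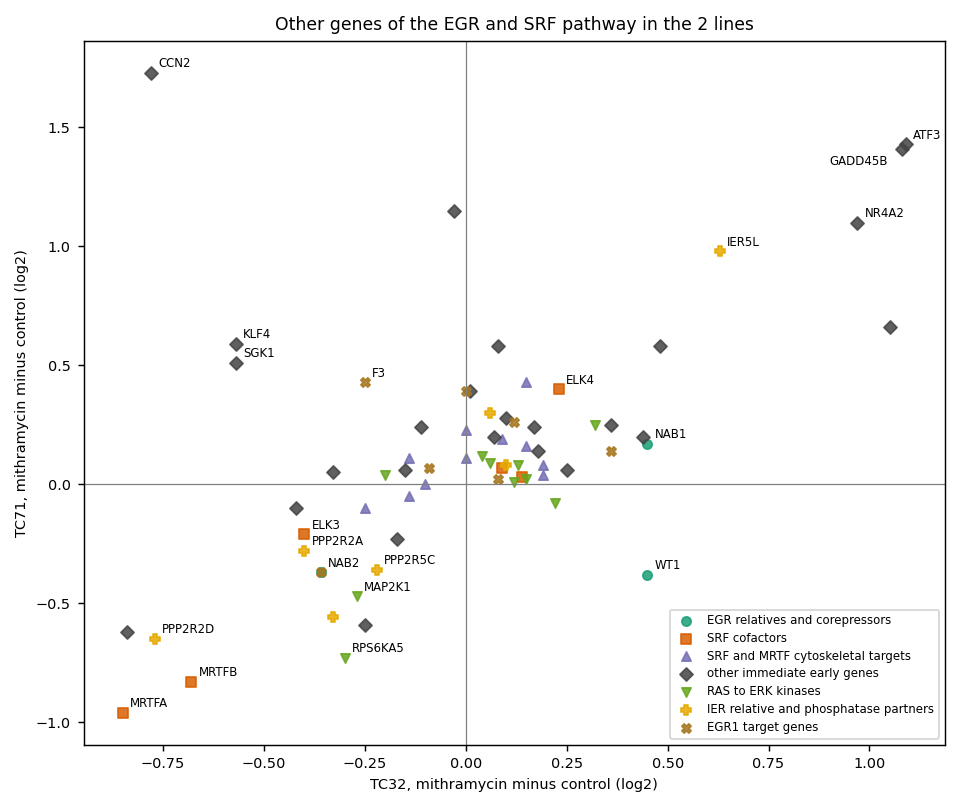
Mithramycin minus control on the log2 scale in TC32 (x axis) and TC71 (y axis) for the 68 genes of the 7 lists, with 1 marker shape and colour per list and each gene at its brightest probe set. GADD45B, ATF3, NR4A2 and IER5L lie at the upper right, MRTFA and MRTFB at the lower left, and CCN2, SGK1 and KLF4 at the upper left.

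Upstream, 10 of the 15 kinases and GTPases from RAS to ERK were measured, of which 1 rose and 3 fell in TC32 and 2 fell in TC71. MAP2K1, which encodes the ERK kinase MEK1, fell in both lines (-0.27 ± 0.06 in TC32 and -0.47 ± 0.06 in TC71, limma adjusted p = 0.00448 and 9.37e-05). RPS6KA5, which encodes the histone kinase MSK1, fell in TC32 (-0.30) and TC71 (-0.73, limma adjusted p = 0.00574 and 6.7e-06), and the difference between the lines was called (-0.43, limma adjusted p = 0.0249). Its TC32 call was lost without sets ending in _x_at and _s_at (-0.22, limma adjusted p = 0.112) and with the mean of its probe sets (-0.16, limma adjusted p = 0.0603). The remaining calls of this list, named after their values were seen, were MAPK3, which encodes ERK1, higher in TC32 (0.32, limma adjusted p = 0.021), and RPS6KA1, a ribosomal S6 kinase gene, lower in TC32 (-0.20, limma adjusted p = 0.0441). MAPK3 was not called with arrays centred on housekeeping genes (0.22) or hybridization controls (0.17), and RPS6KA1 lost its call under 16 of 22 alternatives (-0.35 to -0.09 over all 22).

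IER5L, a relative of IER5, rose in both lines, and its 2 probe sets gave 0.63 each in TC32 and 0.72 and 0.98 in TC71. Its brighter probe set averaged 6.29 ± 0.02 with mithramycin and 5.66 ± 0.08 in control in TC32, and 6.79 ± 0.05 with mithramycin and 5.80 ± 0.16 in control in TC71, rises of 0.63 ± 0.08 and 0.98 ± 0.08 (limma adjusted p = 4.28e-05 and 1.15e-06). The difference between the lines was not called (0.35, limma adjusted p = 0.0952). Of the 7 genes of its list, 1 rose and 3 fell in TC32, and 1 rose and 4 fell in TC71. PPP2R2A, a regulatory subunit of PP2A, fell by 0.40 and 0.28 (limma adjusted p = 0.000478 and 0.00775), the TC71 call being lost with hybridization centring (-0.20, limma adjusted p = 0.209). PPP2R2D fell by 0.77 and 0.65 (limma adjusted p = 1.87e-05 and 0.000101) by the brighter of its sets, which ends in _s_at, while the other set had -0.15 and -0.21 and was not called with such sets left out. PPP2R5C fell by its brightest set (-0.22 and -0.36, limma adjusted p = 0.0461 and 0.00497), while 2 of its 6 sets in TC32 and 3 in TC71 were called higher. Its TC32 call was lost under 17 of 23 alternatives and its TC71 call under 3, and with the mean of its sets the values were 0.11 and 0.09. PPP2R2B, named after its values were seen, fell in TC71 (-0.56, limma adjusted p = 0.0318), a call lost under 8 of 21 alternatives (-0.66 to -0.30 over all 21), 5 of the 8 with a single array left out.

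Of the 7 EGR1 target genes measured, 1 rose and 2 fell in TC32, and 2 rose and 1 fell in TC71, with medians of 0.00 and 0.14. NAB2, given above, was the one that fell in both lines. The others were named after their values were seen. F3, which encodes tissue factor, averaged 6.22 ± 0.21 with mithramycin and 6.47 ± 0.07 in control in TC32, and 6.92 ± 0.04 with mithramycin and 6.49 ± 0.02 in control in TC71. Its fall in TC32 was -0.25 (limma adjusted p = 0.0424, not called under 13 of 23 alternatives), its rise in TC71 was 0.43 (limma adjusted p = 0.00269), and the effects differed by 0.68 (limma adjusted p = 0.00516). FN1, which encodes fibronectin, had 0.00 in TC32 and was higher by 0.39 in TC71 (limma adjusted p = 0.0021), with its 7 probe sets spread between -1.65 and 0.31 in TC32 and between -0.13 and 0.53 in TC71. Without sets ending in _x_at and _s_at, FN1 had -1.65 in TC32 (limma adjusted p = 3.77e-07) and 0.07 in TC71 (limma adjusted p = 0.777). PDGFB, a growth factor gene, rose in TC32 (0.36, limma adjusted p = 0.00792), a call that was lost without sets ending in _x_at and _s_at (0.05).

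The arrays of a group correlated at 0.9948 or more. The 6 Ewing sarcoma markers measured (CD99, NKX2-2, STEAP1, LIPI, PRKCB and BCL11B) lay above the array median on all arrays, and the 3 blood and 4 epithelial markers below it on all arrays, as did 3 of 4 endothelial markers. The mean level of the Ewing sarcoma markers was 9.38 to 9.43 with mithramycin and 9.94 to 10.0 in control in TC32. In TC71 it was 8.96 to 9.01 with mithramycin and 9.47 to 9.53 in control. The 3′ to 5′ difference of the beta-actin control sets was 0.51 to 0.67 with mithramycin and 0.67 to 0.74 in control in TC32, and 0.79 to 0.99 with mithramycin and 1.08 to 2.0 in control in TC71. The value of 2.0 belonged to TC71 control replicate 1. Without that array, 2 probe sets of the EGR, IER and SRF genes were called higher in TC71 control than in TC32 control and 7 lower, as with it. With mithramycin in TC71, 4 of their probe sets were called higher without that array, against 5 with it, and EGR1 201694_s_at lost its call. In the TC71 lists 19 genes were called higher and 12 lower with mithramycin without that array.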

How the data were processed

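RNA from 12 samples was measured on 1-colour arrays, 1 array per sample. The deposited values are log2 values per probe set from RMA, per the submitters' processing notes; of its version and settings nothing is given in the sources used here. The method evens out the distributions of the arrays, so differences are relative to the other genes. Symbols come from the platform annotation, in which 41091 of 54675 probe sets had 1 symbol, 1801 several and 11721 none here, and 62 were control sets; 41037 were matched to RefSeq names by Entrez identifier.

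All arrays entered 1 model with a mean per group in limma 3.58.1 (R 4.3.3, lmFit and eBayes, two-sided), tested on simulated data first. P-values were adjusted by Benjamini-Hochberg over the 54613 non-control probe sets and called under 0.05; they measure the spread between samples that the labels call biological replicates, and 3 arrays per group limit the precision. The genes, lists and tests were chosen with earlier results of these data known. All probe sets of the 7 genes were named, and of the lists the EGR relatives, corepressors, SRF cofactors, IER5L and up to 3 further genes per list with the largest mean change among those called the same way in both lines. The alternatives were quantile normalization run again, centring on 9 housekeeping genes or 18 hybridization controls, a mean of at least 6, eBayes with trend and robust, no sets ending in _x_at or _s_at, 1 probe set or the mean per gene, the arrays compared only, the replicate block, a beta-actin covariate and leaving out each array.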

Additional observations from a re-analysis of the deposited data

Results flagged for a closer look

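The values below were picked out because the mithramycin effect differed between the lines. In EGR1 201694_s_at every treated array was lower than every control in TC32 and higher than every control in TC71. The TC71 effect exceeded the TC32 effect by 0.94 on the log2 scale. This difference was not tested, since the gene was chosen on these values. The dimmer EGR1 sets overlapped in TC71, and the calls of 201694_s_at were lost under some alternatives in each line. For the genes of the lists the difference was tested with limma, adjusted over all probe sets. It was 2.51 for CCN2, 1.08 for SGK1, 1.16 for KLF4 and 0.68 for F3, each with a fall in TC32 and a rise in TC71 (limma adjusted p = 3.87e-07, 1.7e-05, 0.00113 and 0.00516). The F3 fall in TC32 was not called under 13 of 23 alternatives. The KLF4 rise in TC71 was not called with the beta-actin covariate, and its other probe set had 0.03 in TC32 and 0.12 in TC71. KLF4 lay below the array medians in TC71, so its size is rough. RPS6KA5 fell in both lines and fell further in TC71, with a difference of -0.43 (limma adjusted p = 0.0249).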

How the results depend on the processing

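The signs of the IER2, IER3 and IER5 differences with mithramycin held under every alternative run, at 0.52 to 0.74, 0.19 to 1.25 and 0.38 to 1.19 over both lines. Centring on housekeeping genes moved the median of all probe sets to -0.04 in TC32, -0.06 in TC71 and 0.15 between the control samples, against 0.06, 0.05 and -0.04, and centring on hybridization controls moved it to -0.09, 0.14 and 0.02. The share of calls that were higher went with it, at 30.7% and 27.4% (housekeeping) or 20.0% and 64.7% (hybridization controls), against 53.6% in TC32 and 51.5% in TC71. With the beta-actin covariate 9477 probe sets were called in TC71, against 15394.

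The lower EGR, IER and SRF probe sets with mithramycin in TC32, 2 in the report, numbered 1 with quantile normalization run again, 0 with a mean of at least 6, 0 without sets ending in _x_at or _s_at, 1 by the brightest set and 1 by the mean per gene, and 1 to 3 with an array left out. In TC71 the 5 higher sets numbered 3 with housekeeping centring, 2 without _x_at and _s_at sets, 3 by the mean per gene and 4 to 5 with an array left out. The 1 lower set in TC71 was gone (0) with a mean of at least 6 and by the brightest set. The median in TC32 was -0.08 and -0.13 with housekeeping and hybridization centring, 0.44 with a mean of at least 6, 0.15 without _x_at and _s_at sets, 0.16 by the brightest set, 0.15 by the mean per gene and -0.01 to 0.08 with an array left out. The median in TC71 was 0.13 and 0.32 with the same centrings, 0.88 with a mean of at least 6, 0.46 by the brightest set, 0.32 with the beta-actin covariate and 0.16 to 0.29 with an array left out. Between the control samples the 2 higher sets numbered 0 with a mean of at least 6, 1 without _x_at and _s_at sets, 1 by the brightest set, 1 by the mean per gene and 1 to 2 with an array left out, and the 7 lower sets numbered 4 with a mean of at least 6 and 2 without _x_at and _s_at sets. These filters leave fewer sets or 1 value per gene by their construction. Of the list genes, 22 were called higher in TC32 with quantile normalization run again and 6 with hybridization centring, against 13, and 7 were called lower in TC71 without _x_at and _s_at sets, against 12. The sign turned with the mean of all probe sets in ELK4 in TC32 (-0.12) and in PPP2R5C (0.11 in TC32 and 0.09 in TC71), and without _x_at and _s_at sets in FN1 in TC32 (-1.65) and KLF6 in TC71 (0.04). Apart from the fewer sets tested, the cause was not tested.

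Samples with the same replicate number did not deviate together in every pair (r = 0.07, 0.21 and 0.03 in TC32 and -0.09, -0.02 and -0.03 in TC71). Samples with different numbers had r from -0.17 to 0.11 in TC32 and from -0.04 to 0.07 in TC71. With 3 arrays per group these values cannot settle whether the numbers pair the samples, so the block is given as an alternative. The replicate block gave 13 higher and 15 lower list genes in TC32 and 18 higher and 12 lower ones in TC71, and 19626 and 15124 probe sets were called in the lines, against 19826 and 15394. Of the list genes named here, PPP2R5C, F3 and RPS6KA1 in TC32 and CNN1 in TC71 lost a call with the block. Signal near the array median limits what EGR3, EGR4 and the dimmer EGR1 and SRF sets can show.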
